A study of Mus musculus with 16 samples.

Results

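Interferon response genes are genes that cells switch on when an interferon binds its receptor. A set of 41 such genes was followed across 16 mouse melanoma biopsies measured on 2-colour microarrays. The members were taken by name: a probe belonged to the set when the array files gave it 1 of the 41 symbols and it was not a control spot. All 41 genes were found, with 59 probes, and all 41 passed the filter on dim probes among the 21985 genes and transcripts tested. The probe used for each gene was above background on all 16 arrays, except that of Herc6, which was above background on 15.

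The 16 tumours formed 4 groups of 4. Tumours were untreated, treated for 4 days, treated for 60 days, or resistant, and the labels describe the resistant tumours as treated for 120 days. The series title names BRAF inhibitors, drugs that block the mutant kinase driving many melanomas. The compound, its dose, the tumour model, and the strain, genotype, age and sex of the mice are not given in the sources used here, and neither is whether the 4 tumours of a group came from separate animals, so p-values measure the spread between these samples. Each array carried labelled tumour RNA in Cy5 and the same universal mouse reference RNA in Cy3. A level is therefore log2 of Cy5 over Cy3, which can be compared between arrays for 1 gene but not between genes. Replicate numbers follow accession order and pair nothing across groups. The titles carry codes of unknown meaning that several tumours of a group share, and such tumours were treated as independent. No code occurs in more than 1 group, so code and group cannot be told apart, and in the 60-day and resistant groups each code lies on 1 slide, so code and slide cannot be told apart there.

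All 7 melanocyte markers tested (Tyr, Tyrp1, Dct, Pmel, Mlana, Mitf and Sox10) stood above background on 15 or 16 arrays, and their mean level lay between 2.05 and 2.49 on the untreated arrays. Between 49.0% and 54.2% of probes were above background per array. The arrays lay on 2 slides with 2 arrays of every group on each, replicates 3 and 4 on slide 1 and replicates 1 and 2 on slide 2, so slide and group could be separated. Position on the slide went with the group, and the 2 cannot be told apart.

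As background, type I interferons act through the receptor Ifnar1 and Ifnar2 and the kinases Jak1 and Tyk2, which activate STAT transcription factors. Stat2 and Irf9 are part of a complex that binds the interferon-stimulated response element (ISRE) in promoters. Interferon gamma, made mostly by T cells and NK cells, acts through Ifngr1 and Ifngr2 and leads to binding at the gamma-activated site (GAS) and to the induction of Irf1, a transcription factor that also reads ISRE-like sites. In tumours the response is known for antigen presentation and for the chemokines that draw in activated T cells.

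The interferon response genes stood mostly below the untreated tumours in each of the other groups, but no single member passed the test. At 4 days 40 of 41 members were lower than in untreated tumours, against 51.3% of all genes tested, and the median difference was -0.56 on the log2 scale, against -0.01 over all genes. At 60 days 39 of 41 were lower (49.8% of all genes) with a median of -0.60 (0.00 over all genes), and in resistant tumours 39 of 41 (47.8% of all genes) with a median of -0.47 (0.01 over all genes). The 3 comparisons share the same untreated tumours, so they are not independent of each other. The members also varied together between tumours of a group (below), so the 41 genes are not separate observations. In whole-tumour RNA, fewer cells that express a gene and less RNA per cell cannot be told apart.

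Differences were tested with limma over all genes, with Benjamini-Hochberg adjusted p-values and a threshold of 0.05. Of the 41 members, 0 were called at 4 days, where 1.34% of all genes were called. The count was also 0 at 60 days (0.819% of all genes called) and 0 in resistant tumours (0.0182% called). The smallest adjusted p of a member was 0.0903 at 4 days and 0.0746 at 60 days, both for Zbp1, and 0.178 in resistant tumours, for Bst2. At an unadjusted p under 0.05 the counts were 19 of 41 at 4 days (16.7% of all genes), 17 at 60 days (18.7%) and 15 in resistant tumours (9.52%). Without a test, 4 members had all 4 arrays of the 4-day group below all 4 untreated arrays (4.19% of all genes), 14 at 60 days (6.40%) and 7 in resistant tumours (2.74%). No member had all arrays of a treated or resistant group above all untreated arrays. Of all genes, 2.81% did at 4 days, 7.4% at 60 days and 1.55% in resistant tumours.

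**Figure D1:**
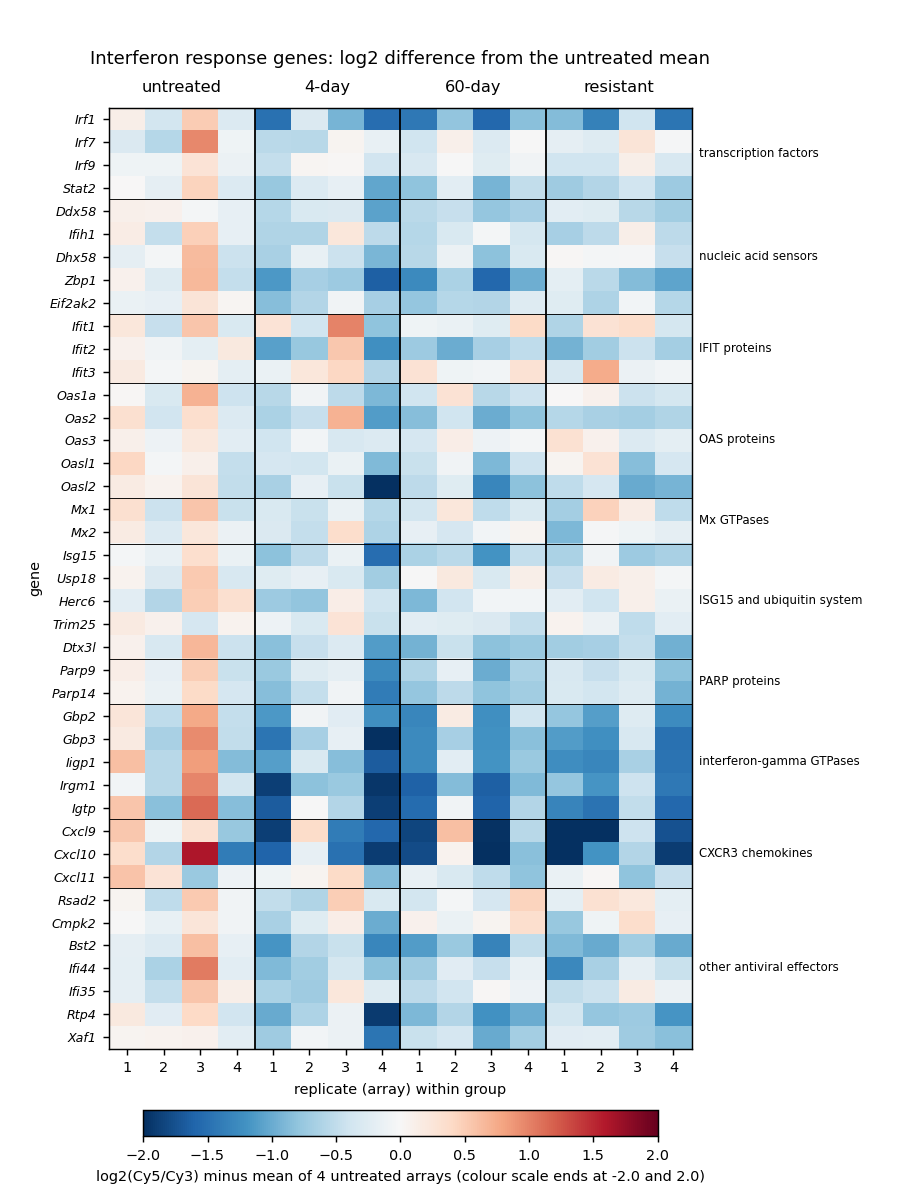
Each row is 1 of the 41 genes, grouped by role, and each column is 1 array; colour gives the log2 ratio minus the mean of the 4 untreated arrays. Blue prevails outside the untreated group, with mixed colours for Ifit1, Ifit3, Cmpk2 and Rsad2, and untreated replicate 3 is the reddest column.

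The 4 transcription factors differed in size. Irf1, the factor induced by interferon gamma (probe at chr11:53590746-53590805, mm9 positions of the array design, as for all probes here), read 1.55, 1.06, 1.94 and 1.17 in untreated tumours and -0.06, 1.14, 0.50 and -0.09 at 4 days. It read 0.00, 0.64, -0.13 and 0.60 at 60 days and 0.56, 0.07, 1.03 and -0.03 in resistant tumours. All 60-day and resistant arrays lay below all untreated arrays, whereas 4-day replicate 2 lay within the untreated range. The differences from untreated were -1.06 ± 0.31 (SE, 4 arrays against 4) at 4 days, -1.15 ± 0.31 at 60 days and -1.02 ± 0.31 in resistant tumours, with limma adjusted p of 0.112, 0.0856 and 0.250. These correspond to levels 2.08-fold, 2.22-fold and 2.03-fold below untreated.

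Stat2, which partners Irf9, read 1.09, 0.89, 1.52 and 0.80 in untreated tumours, 0.32, 0.80, 0.91 and 0.03 at 4 days, 0.27, 0.86, 0.14 and 0.58 at 60 days and 0.37, 0.49, 0.69 and 0.35 in resistant tumours. Only the resistant arrays lay wholly below the untreated ones, and the difference there was -0.60 ± 0.21 (limma adjusted p = 0.357). Irf9, the DNA-binding part of that complex, differed by -0.20 ± 0.16, -0.16 ± 0.16 and -0.25 ± 0.16, with overlapping groups. Irf7, which amplifies type I interferon transcription, differed by -0.30 ± 0.27, -0.14 ± 0.27 and -0.05 ± 0.27, and its untreated arrays themselves spread from -1.01 to 0.52.

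Among the 5 nucleic acid sensors, Zbp1, a sensor of Z-form nucleic acid that can start cell death, had the smallest p-values of the whole set at 4 and 60 days. Zbp1 read 0.68, 0.33, 1.23 and 0.11 in untreated tumours and -0.57, -0.07, -0.15 and -1.04 at 4 days, with no overlap. It read -0.68, -0.04, -0.98 and -0.39 at 60 days, again with no overlap, and 0.39, 0.05, -0.27 and -0.47 in resistant tumours, where replicate 1 lay inside the untreated range. The differences were -1.04 ± 0.28, -1.11 ± 0.28 and -0.66 ± 0.28. Its second probe gave -0.93, -0.87 and -0.53.

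Ddx58, the RNA sensor RIG-I, was 1 of the 2 members whose arrays lay wholly below the untreated arrays in all 3 comparisons. It read 0.48, 0.47, 0.35 and 0.22 in untreated tumours, -0.18, 0.07, 0.09 and -0.69 at 4 days, -0.16, -0.08, -0.40 and -0.29 at 60 days and 0.17, 0.14, -0.17 and -0.32 in resistant tumours. The differences were -0.56 ± 0.17, -0.61 ± 0.17 and -0.42 ± 0.17, with limma adjusted p of 0.117, 0.0870 and 0.413. The share of all genes wholly below the untreated arrays in all 3 comparisons was not counted. In the single comparisons it was 4.19%, 6.40% and 2.74%. Eif2ak2, the kinase PKR that halts translation on double-stranded RNA, differed by -0.55 ± 0.18 at 4 days and -0.55 ± 0.18 at 60 days, where its groups did not overlap. Ifih1 (the sensor MDA5) ranged from -0.40 to -0.32 over the 3 comparisons. Dhx58, the regulator LGP2, differed by -0.54 ± 0.23 at 4 days, -0.45 ± 0.23 at 60 days and -0.12 ± 0.23 in resistant tumours.

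The other gene without overlap in any of the 3 comparisons was Bst2, the tetherin protein that holds budding virus at the cell surface. Bst2 read 0.64, 0.56, 1.43 and 0.67 in untreated tumours, -0.35, 0.24, 0.38 and -0.48 at 4 days, -0.29, 0.08, -0.52 and 0.34 at 60 days and -0.06, -0.18, 0.12 and -0.19 in resistant tumours. The 12 treated and resistant arrays all lay below the lowest untreated array, and the resistant arrays kept within a narrow band. Its differences were -0.88 ± 0.24, -0.92 ± 0.24 and -0.90 ± 0.24, and its adjusted p-values by limma were 0.0909, 0.0771 and 0.178.

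The interferon-gamma-induced GTPases, which attack vacuoles that hold intracellular pathogens, showed some of the widest differences. All 5 (Gbp2, Gbp3, Iigp1, Irgm1 and Igtp) were lower in every one of the 3 comparisons, with medians of -1.03 at 4 days, -0.95 at 60 days and -1.04 in resistant tumours, and 0 of 5 were called. Irgm1 (probe at chr11:48679069-48679128, mm9) read 1.48, 1.00, 2.52 and 1.18 in untreated tumours and -0.34, 0.73, 0.80 and -0.40 at 4 days, with no overlap. It read -0.08, 0.68, -0.09 and 0.67 at 60 days, again with no overlap, and 0.77, 0.36, 1.13 and 0.11 in resistant tumours, where replicate 3 overlapped the untreated range. The differences were -1.35 ± 0.37 (2.54-fold lower), -1.25 ± 0.37 and -0.95 ± 0.37, with limma adjusted p of 0.0924, 0.107 and 0.410. A second Irgm1 probe gave -1.33, -1.11 and -0.99.

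Gbp3, a guanylate-binding protein, read 3.32, 2.50, 4.09 and 2.65 in untreated tumours, 1.67, 2.48, 2.98 and 1.06 at 4 days, 1.86, 2.48, 1.94 and 2.30 at 60 days and 2.03, 1.91, 2.82 and 1.65 in resistant tumours. At 60 days its highest array, at 2.48, lay just below the lowest untreated array, at 2.50, and the difference was -0.996 ± 0.41. Gbp2 differed by -0.67 ± 0.39, -0.69 ± 0.39 and -0.85 ± 0.39, with overlap in each comparison.

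Igtp, an immunity-related GTPase, read 2.57, 1.17, 3.14 and 1.15 in untreated tumours and 0.69, 0.53, 1.52 and 0.44 in resistant tumours, a difference of -1.21 ± 0.52. Its untreated arrays formed a high pair (replicates 1 and 3) and a low pair (replicates 2 and 4), and resistant replicate 3 lay above the low pair. Iigp1, a relative, read 2.67, 1.52, 2.91 and 1.22 in untreated tumours and 0.83, 0.78, 1.44 and 0.61 in resistant tumours, with the same high and low pairs and a difference of -1.17 ± 0.39 (limma adjusted p = 0.302). At 4 days the differences were -1.03 ± 0.52 for Igtp and -0.98 ± 0.39 for Iigp1. Several members have close relatives (the Gbp, Oas and Ifit families), and hybridisation of a probe to a relative was not tested.

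Promoters of members with the largest differences at 4 days are shown because they hold the letters at the core of the element bound by the complex of Stat2 and Irf9. The sequences are from RefSeq (build GRCm38.p6), run 5′ to 3′ on the gene's strand, end before the transcription start, and have every ISRE core, here GAAANNGAAA on either strand, in capitals. They are the 5 members with the largest 4-day differences among those named under the rule of the methods that hold such a core, in the order of that difference.
Irgm1, chr11:48871421-48871484, minus strand: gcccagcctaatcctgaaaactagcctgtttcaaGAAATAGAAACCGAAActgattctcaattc
Cxcl10, chr5:92349053-92349139, minus strand: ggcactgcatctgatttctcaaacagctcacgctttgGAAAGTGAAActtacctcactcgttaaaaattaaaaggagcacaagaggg
Gbp3, chr3:142559965-142560043, plus strand: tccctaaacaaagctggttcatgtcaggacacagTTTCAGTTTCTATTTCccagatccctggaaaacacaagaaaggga
Igtp, chr11:58199482-58199555, plus strand: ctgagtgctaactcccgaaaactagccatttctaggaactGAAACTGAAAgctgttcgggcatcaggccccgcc
Isg15, chr4:156200835-156200924, minus strand: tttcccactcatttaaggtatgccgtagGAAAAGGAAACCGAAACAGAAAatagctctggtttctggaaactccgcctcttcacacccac

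In Irgm1 and Gbp3 a pair of overlapping cores share a GAAA or its complement, and in Isg15 3 cores overlap in 1 run. The core nearest the start began 24 bases before it in Irgm1, 39 in Gbp3, 34 in Igtp, 66 in Isg15 and 213 in Cxcl10. RefSeq promoters were at hand for 30 of the 41 members; those without an entry were Cxcl11, Dhx58, Iigp1, Mx1, Mx2, Oas2, Parp14, Parp9, Rtp4, Usp18 and Zbp1. Within 250 bases upstream, 13 of the 30 (43.3%) held an ISRE core, against 936 of 27025 genes in the table (3.46%). A GAS core, here TTCNNNGAA, which reads the same on both strands, was held by 6 of the 30 (20.0%), among them Irf1 and Igtp, against 8.13% of all genes. As a description, the median difference at 4 days was -0.67 for the 13 genes with an ISRE core and -0.55 for the 17 without, and in resistant tumours -0.60 and -0.40. Ifit1 and Ifit3, whose differences were near 0, held 2 cores each, and Cxcl9, with the widest difference in resistant tumours, held none in this window. A match to these letters is not a measured binding site.

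Cxcl9 and Cxcl10, chemokines that draw activated T cells and NK cells through the receptor CXCR3, had the widest differences in resistant tumours, whereas Irgm1 had the widest at 4 and 60 days. Cxcl9 (probe at chr5:92752191-92752250, mm9) read 4.32, 3.70, 4.09 and 3.03 in untreated tumours and 1.90, 4.15, 2.39 and 2.21 at 4 days. It read 1.95, 4.39, 1.82 and 3.23 at 60 days and 0.72, 1.02, 3.37 and 2.05 in resistant tumours. Each treated or resistant group overlapped the untreated range, through 4-day replicate 2, 60-day replicates 2 and 4 and resistant replicate 3. The difference in resistant tumours was -1.999 ± 0.67 (4.00-fold lower, limma adjusted p = 0.309), and it was -0.85 on slide 1 alone and -3.14 on slide 2 alone. It was -0.81 with the scanner software's own processed signals and -0.56 in the deposited value table, and the cause was not tested. A second Cxcl9 probe gave -1.86.

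Cxcl10 read 2.40, 1.46, 3.66 and 0.64 in untreated tumours, 0.43, 1.87, 0.54 and 0.15 at 4 days, 0.25, 2.12, -0.10 and 1.20 at 60 days and 0.04, 0.84, 1.45 and 0.14 in resistant tumours. Every group overlapped the untreated tumours, whose own values spanned 0.64 to 3.66. The differences were -1.29 ± 0.62, -1.17 ± 0.62 and -1.42 ± 0.62, and they were -0.75, -0.63 and -0.88 without untreated replicate 3, the highest array. Its second probe was above background on 2 arrays only. Cxcl11 differed by -0.13 ± 0.30, -0.45 ± 0.30 and -0.35 ± 0.30, and a second Cxcl11 probe gave 0.00, -0.21 and -0.24. The Cxcl11 probe used was the brightest of the members, with a mean log2 intensity over both dyes of 16.6. The next brightest, that of Trim25, stood at 13.5. Whether the Cxcl11 probe reads Cxcl11 alone was not tested.

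**Figure D2:**
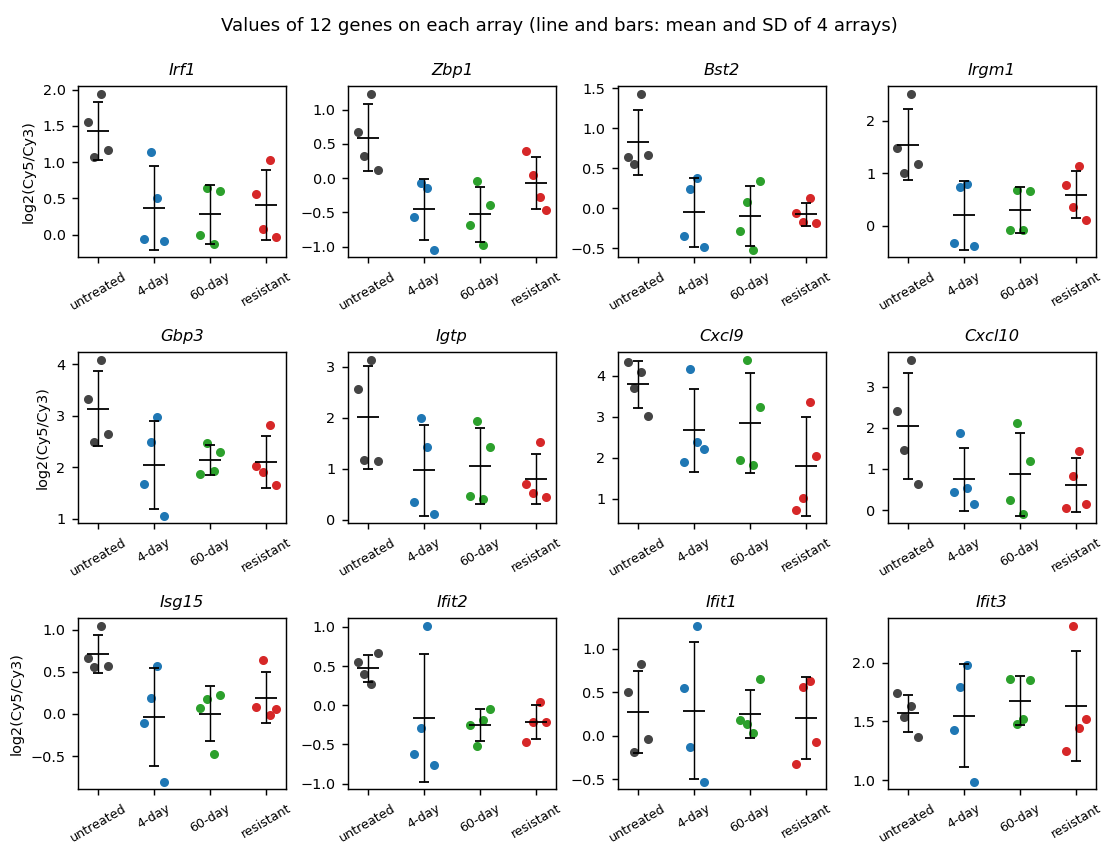
Each panel shows the log2 ratio of 1 gene on all 16 arrays, with the mean and SD of each group of 4. Bst2 lies wholly below the untreated arrays in the other 3 groups, whereas Ifit1 and Ifit3 overlap throughout and Cxcl9 spreads widely within groups.

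The ISG15 system was mixed. Isg15, a ubiquitin-like protein joined to other proteins during the response, read 0.67, 0.56, 1.05 and 0.57 in untreated tumours, -0.11, 0.19, 0.57 and -0.80 at 4 days, 0.07, 0.18, -0.48 and 0.23 at 60 days and 0.08, 0.64, -0.01 and 0.06 in resistant tumours. The 60-day arrays lay wholly below the untreated arrays, and 4-day replicate 3 and resistant replicate 2 reached the untreated range. The differences were -0.75 ± 0.26, -0.71 ± 0.26 and -0.52 ± 0.26. Usp18, which removes Isg15 from proteins and restrains the receptor, differed by -0.36 ± 0.20 at 4 days and by 0.00 ± 0.20 at 60 days. Dtx3l, a ubiquitin ligase that works with Parp9, differed by -0.67 ± 0.23, -0.74 ± 0.23 and -0.70 ± 0.23, with no overlap at 60 days and in resistant tumours, but its other 2 probes gave between -0.25 and -0.14. Herc6, the ISG15 ligase of the mouse, and Trim25, a ligase acting on RIG-I, ranged from -0.44 to -0.15. The ADP-ribosyltransferases Parp9 and Parp14 differed by -0.61 ± 0.26 and -0.70 ± 0.24 at 4 days, -0.60 ± 0.26 and -0.70 ± 0.24 at 60 days and -0.47 ± 0.26 and -0.47 ± 0.24 in resistant tumours.

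The classical antiviral effectors showed smaller differences than the GTPases in most cases, a comparison that was not tested. Oas2, which makes the second messenger that switches on RNase L, read 0.83, 0.12, 0.84 and 0.22 in untreated tumours, -0.13, 0.04, 1.19 and -0.61 at 4 days, -0.35, 0.10, -0.48 and -0.31 at 60 days and -0.07, -0.15, -0.17 and -0.10 in resistant tumours. The 60-day and resistant arrays lay wholly below the untreated ones, with differences of -0.76 ± 0.30 and -0.63 ± 0.30, while 4-day replicate 3 was above every untreated array. Over the 5 OAS genes the median difference was -0.43 at 4 days, -0.46 at 60 days and -0.21 in resistant tumours. Oasl2 differed by -0.82 ± 0.34, -0.72 ± 0.34 and -0.69 ± 0.34, and Oasl1 by -0.43 ± 0.26, -0.46 ± 0.26 and -0.21 ± 0.26. Oas3 was near 0 in resistant tumours at -0.02 ± 0.15, and Oas1a differed by -0.51 ± 0.25, -0.27 ± 0.25 and -0.17 ± 0.25.

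Mx1, a GTPase that blocks influenza-type viruses, read 1.16, 0.41, 1.40 and 0.40 in untreated tumours and 0.17, 1.30, 1.00 and 0.34 in resistant tumours, with overlap. Its differences were -0.36 ± 0.28, -0.24 ± 0.28 and -0.14 ± 0.28, and those of Mx2 ranged from -0.30 to -0.12. The IFIT proteins, which bind foreign RNA, split. Ifit2 read 0.55, 0.40, 0.27 and 0.66 in untreated tumours, -0.62, -0.29, 1.02 and -0.76 at 4 days, -0.25, -0.52, -0.19 and -0.04 at 60 days and -0.47, -0.22, 0.05 and -0.21 in resistant tumours. Its 60-day and resistant arrays lay wholly below the untreated ones, and 4-day replicate 3 lay above them. Ifit1 differed by 0.01 ± 0.35, -0.02 ± 0.35 and -0.08 ± 0.35, and Ifit3 by -0.02 ± 0.23, 0.11 ± 0.23 and 0.06 ± 0.23, and both groups of arrays overlapped in each case.

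Rsad2, the antiviral enzyme viperin, overlapped the untreated range throughout. Rsad2 read -0.36, -0.92, 0.11 and -0.49 in untreated tumours and -0.61, -0.11, -0.20 and -0.61 in resistant tumours, and differed by -0.23 ± 0.27, -0.08 ± 0.27 and 0.04 ± 0.27. Cmpk2, a nucleotide kinase encoded beside it, differed by -0.44 ± 0.24, 0.09 ± 0.24 and -0.16 ± 0.24. Of the remaining effectors, Rtp4 differed by -0.91 ± 0.31, -0.92 ± 0.31 and -0.76 ± 0.31, without overlap at 60 days only, and Xaf1, a partner of the apoptosis inhibitor XIAP, by -0.58 ± 0.27, -0.61 ± 0.27 and -0.49 ± 0.27. A second Xaf1 probe, above background on 6 arrays, gave -0.10, -0.13 and -0.01. Ifi44 ranged from -0.68 to -0.39 and Ifi35 from -0.35 to -0.22. In all, 37 of 41 members were lower in each of the 3 comparisons. The exceptions were Ifit1, Ifit3, Cmpk2 and Rsad2. The share of all genes lower in all 3 comparisons was not counted.

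**Figure D3:**
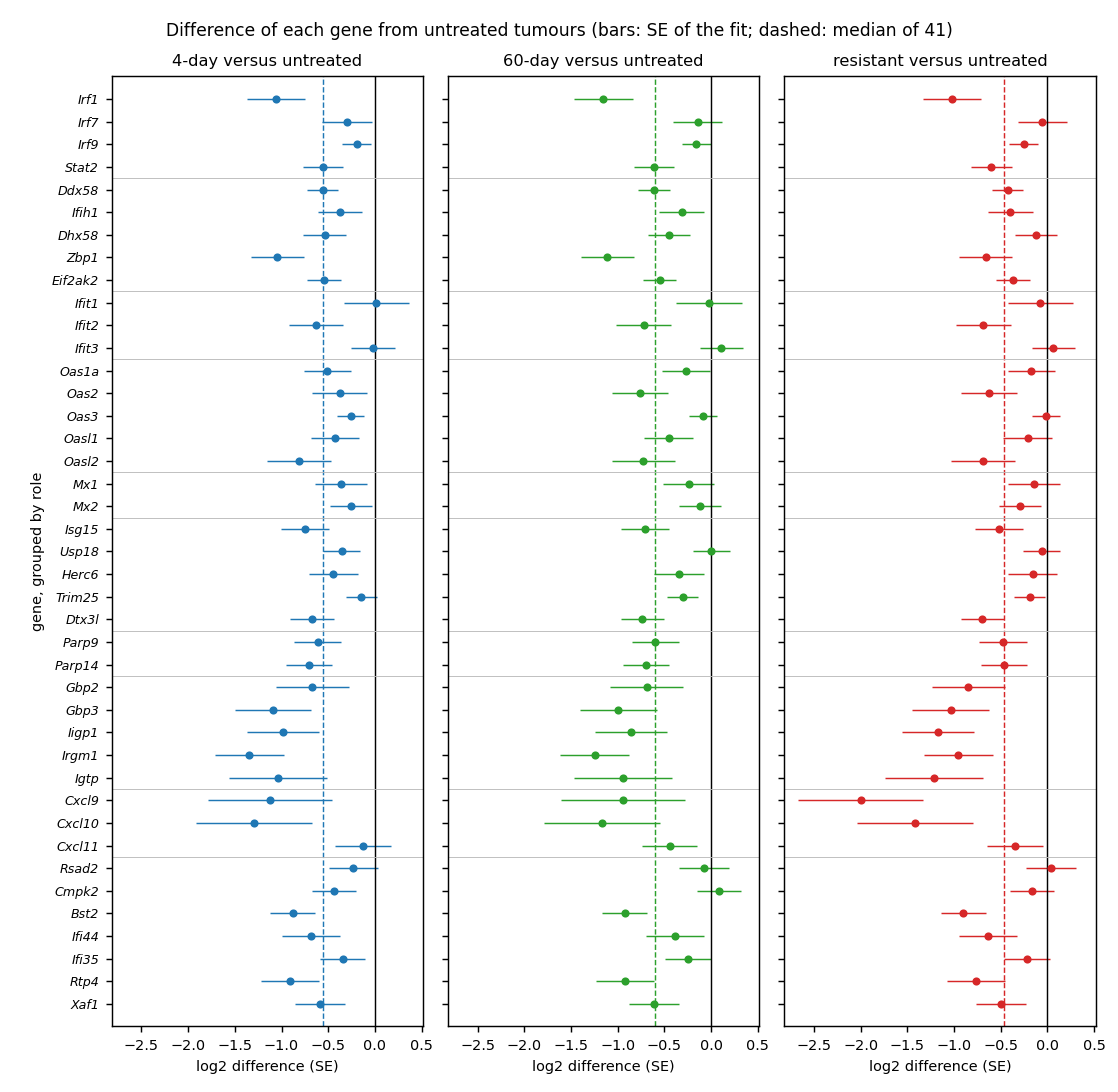
Points give the log2 difference of each gene from the untreated tumours with the SE of the fit, in 4-day, 60-day and resistant tumours, grouped by role in the order of the text on roles; dashed lines mark the medians of -0.56, -0.60 and -0.47. Most points lie left of 0, farthest for Irgm1 at 4 and 60 days and for Cxcl9 in resistant tumours.

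The treated and resistant groups were not told apart by these genes. At 60 days against 4 days, 16 of 41 members were lower and the median difference was 0.06, and 0 members and 0% of all genes were called. In resistant against 4-day tumours 16 of 41 were lower with a median of 0.09, and 0 members were called against 0.00455% of all genes. In resistant against 60-day tumours 14 of 41 were lower with a median of 0.07, and 0 members and 0% of all genes were called. At an unadjusted p under 0.05 the counts by limma were 1 of 41 (1.87% of all genes), 0 (8.19%) and 0 (5.67%). The 1 member was Cmpk2, higher by 0.52 ± 0.24 at 60 days than at 4 days (limma adjusted p = 1.00). The tests do not show that the groups were alike, since the SE of each member's difference was 0.15 (Oas3) or more. The median of the members varied between replicates of a group with a pooled SD of 0.29.

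Between those groups Cxcl9 had the widest differences, at -0.87 ± 0.67 in resistant against 4-day tumours and -1.06 ± 0.67 against 60-day tumours, and its sign differed between the slides in both. Zbp1 differed by 0.38 ± 0.28 and 0.45 ± 0.28, Irgm1 by 0.39 ± 0.37 and 0.30 ± 0.37, and Dhx58 by 0.42 ± 0.23 and 0.33 ± 0.23. Iigp1 differed by -0.31 ± 0.39 in resistant against 60-day tumours and Oas1a by 0.33 ± 0.25 in resistant against 4-day tumours. At 60 against 4 days the next widest were Oas2 at -0.38 ± 0.30, Usp18 at 0.36 ± 0.20, Cxcl11 at -0.32 ± 0.30 and Ifi44 at 0.30 ± 0.31. None of these passed the test.

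The members varied together between tumours of the same group. The mean correlation of 2 members' deviations from their group means was 0.474 over the 16 arrays, against 0.00550 over the 21504 genes with complete values; it was 0.910 among the 5 GTPases and 0.154 among the 3 chemokines. The chemokine value is a mean over all pairs, those with Cxcl11 included, and does not show how Cxcl9 and Cxcl10 went with each other. These correlations are descriptions over arrays that share 1 reference RNA. Untreated replicate 3 was the highest untreated array for 34 of 41 members (37.8% of all genes), and 4-day replicate 4 was the lowest 4-day array for 31 of 41 (26.3% of all genes). Relative to the untreated mean, the median of the 41 genes stood at 0.11, -0.27, 0.49 and -0.27 on the untreated arrays. It stood at -0.72, -0.37, -0.14 and -1.05 at 4 days, -0.61, -0.24, -0.81 and -0.48 at 60 days, and -0.50, -0.41, -0.39 and -0.60 in resistant tumours. The resistant arrays were all below all untreated arrays and close together, whereas 4-day replicate 3 and 60-day replicate 2 were above the 2 lower untreated arrays. Without untreated replicate 3 the median differences were -0.41, -0.46 and -0.34, and without 4-day replicate 4 the 4-day median was -0.39.

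General leukocyte markers went with the interferon genes on part of the arrays. The mean of 3 general leukocyte markers (Ptprc, Laptm5 and Coro1a, all above background on every array) was 0.18, -0.15, 0.67 and -0.10 on the untreated arrays and -0.63, -0.03, 0.18 and -0.84 at 4 days. It was -0.63, -0.05, -0.70 and -0.34 at 60 days and 0.93, -0.08, -0.08 and -0.27 in resistant tumours. The 4 arrays lowest in leukocyte markers, 4-day replicates 1 and 4 and 60-day replicates 1 and 3, were also the 4 arrays lowest in the interferon genes. Resistant replicate 1 departed from this, with the highest leukocyte markers of all 16 arrays and an interferon median of -0.50. All 3 leukocyte markers were lower at 4 and at 60 days (median -0.53 in both) and 1 of 3 in resistant tumours (median 0.04), and 0 were called.

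**Figure D4:**
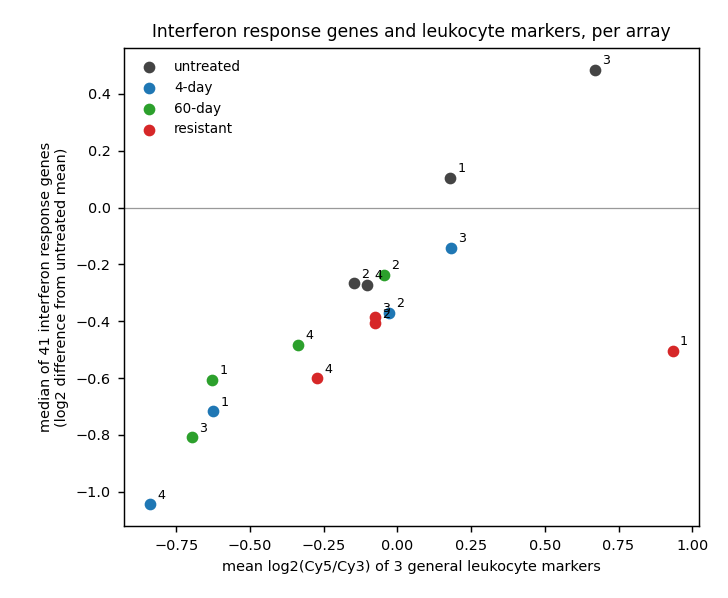
Each point is 1 array, numbered by replicate; the x axis is the mean log2 ratio of 3 leukocyte markers and the y axis the median of the 41 genes relative to the untreated mean. Resistant replicate 1, at 0.93 and -0.50, lies away from the other 15 arrays, which run from low in both measures to high in both.

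By cell type, the array means of 6 macrophage and monocyte markers lay between 1.63 and 2.82 in untreated tumours, 1.10 and 2.40 at 4 days, 1.20 and 2.06 at 60 days and 1.40 and 2.79 in resistant tumours, with 5, 6 and 4 of 6 lower. For 5 NK cell markers the ranges were 0.56 to 1.35, 0.27 to 0.83, 0.46 to 0.92 and 0.25 to 0.74, with 4, 4 and 5 of 5 lower. Of these, Gzmb, Klrb1c and Eomes were above background on 8, 7 and 7 arrays only, Gzmb on no 4-day array, Klrb1c on no 60-day array and Eomes on no resistant array, so their differences are read near background. The NK markers above background on all 16 arrays, Klrd1 and Prf1, differed by -0.78 ± 0.40 and 0.13 ± 0.14 at 4 days, -0.34 ± 0.40 and 0.19 ± 0.14 at 60 days and -0.72 ± 0.40 and -0.01 ± 0.14 in resistant tumours. For 6 T cell markers the array means were -0.13 to 0.60, -0.42 to 0.32, -0.25 to 0.54 and -0.33 to 0.00, with 5, 2 and 5 of 6 lower. For the 4 markers of plasmacytoid dendritic cells, a main source of type I interferon, the array means ranged from 0.03 to 0.19 in untreated tumours. They ranged from -0.34 to 0.28 at 4 days, -0.08 to 0.12 at 60 days and -0.05 to 0.25 in resistant tumours, with 4, 2 and 1 of 4 markers lower. Of these markers, Spib and Ccr9 were above background on 9 and 14 arrays only. For 4 markers of conventional dendritic cells, which present antigen to T cells, the array means were 0.75 to 1.48, 0.60 to 0.96, 0.81 to 1.47 and 0.35 to 1.39, with 3 of 4 markers lower in each comparison. Zbtb46 and Clec9a in this list were above background on 11 and 13 arrays only. The array means of the 3 B cell markers tested ranged from -2.21 to -2.05, -2.50 to -2.06, -2.57 to -2.12 and -2.37 to -1.81, with 2, 3 and 2 of 3 markers lower. Ms4a1 in this list was above background on 9 arrays only. The 4 granulocyte markers, of which Cxcr2 was above background on 13 arrays only, had the widest median difference of these lists at 60 days. Their array means ranged from 2.71 to 3.23, 2.15 to 3.01, 0.87 to 2.74 and 2.76 to 4.67. All 4 were lower at 4 days (median -0.54) and at 60 days (median -0.93), and 1 of 4 was lower in resistant tumours (median 0.65). S100a8, a calcium-binding protein abundant in neutrophils, differed by -1.11 ± 0.91, -2.76 ± 0.91 and 0.74 ± 0.91. The defining markers Cd8b1 (above background on 2 arrays), Ncr1 (1 array) and Xcr1 (0 arrays) did not pass the filter, and Cd8a, in the T cell list, was above background on 4 arrays, none of them 4-day arrays. No marker of these immune cells was called. The part of leukocyte or granulocyte content in the difference of the interferon genes was not tested.

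Among the melanocyte markers Mitf, the master transcription factor of the lineage, rose at 4 days by 0.88 ± 0.20 (limma adjusted p = 0.0459), the only marker gene called in the 3 comparisons with untreated tumours. That call held in 6 of 16 fits without 1 array, those without 4-day replicate 2, 60-day replicate 1, resistant replicate 1, 3 or 4 or untreated replicate 3, and the adjusted p reached 0.144 in the others. Over all 28 alternatives it held in 11. The medians of the 7 melanocyte markers were 0.88 at 4 days, 0.95 at 60 days and 0.09 in resistant tumours. The part of tumour cell content in the interferon genes was not tested either.

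Of the genes that act above the members, the interferon ligands are given first, and most of them did not pass the filter. Of 21 listed interferon ligand genes, 16 were on the array and 7 passed the filter, and 0 were called. Ifnb1 was above background on 0 arrays. Ifng was above background on 10, with untreated arrays between 0.53 and 2.41 and differences of -0.66 ± 0.47, -0.50 ± 0.47 and -0.61 ± 0.47.

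Of 11 receptor and JAK-STAT genes, 9 were lower at 4 days, 8 at 60 days and 7 in resistant tumours, against 51.3%, 49.8% and 47.8% of all genes. Over all genes, 1.34% were called at 4 days. Jak1, the kinase that serves both receptor types, fell at 4 days by 0.56 ± 0.13 on the log2 scale (limma adjusted p = 0.0474), the 1 call of the list. Ifnar1 differed by -0.28 ± 0.19, -0.43 ± 0.19 and -0.18 ± 0.19, Ifnar2 by -0.51 ± 0.29, -0.53 ± 0.29 and -0.10 ± 0.29, and Ifngr2 by -0.44 ± 0.17, -0.52 ± 0.17 and -0.22 ± 0.17. The differences of Ifngr1 lay between -0.08 and 0.06 and those of Tyk2 between -0.10 and 0.08. Jak2 differed by -0.24 ± 0.18, -0.10 ± 0.17 and 0.05 ± 0.17. Of 8 negative regulators 0 were called, and Socs1, an inhibitor that the pathway itself induces, differed by -0.73 ± 0.28, -0.59 ± 0.28 and -0.34 ± 0.28.

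For the lists that follow, the shares of all genes lower were again 51.3%, 49.8% and 47.8%, and 1.34% of all genes were called at 4 days. Of 17 upstream sensors and adaptors, 14 were lower at 4 days, 15 at 60 days and 12 in resistant tumours. Cgas, the enzyme that senses DNA in the cytosol, fell at 4 days by 0.66 ± 0.12 (limma adjusted p = 0.0235), with arrays from -0.46 to -0.20 against 0.17 to 0.36 in untreated tumours. Irf3, the factor these sensors activate, differed by 0.15 ± 0.10, 0.03 ± 0.10 and -0.05 ± 0.10. Of 47 further interferon targets tested, 41 were lower at 4 days, 41 at 60 days and 38 in resistant tumours, with medians of -0.40, -0.40 and -0.28. Nmi, a partner of Stat proteins, fell by 0.81 ± 0.17 and Pnpt1, a mitochondrial RNA exonuclease, by 0.41 ± 0.09 at 4 days, with limma adjusted p of 0.0406 and 0.0491, and 0 of the 47 were called in the other comparisons. Of 16 genes of MHC class I presentation, 15, 12 and 14 were lower and 0 were called. The 4 calls of pathway genes at 4 days were also fitted 16 times with 1 array left out each time. Cgas was called in 11 of the 16 fits and not without 4-day replicate 1 or 4 or untreated replicate 1, 2 or 4, with an adjusted p of up to 0.0772. Nmi was called in 6, those without 4-day replicate 2 or 3, resistant replicate 1, 3 or 4 or untreated replicate 3 (otherwise up to 0.117). Jak1 was called in 3, those without 4-day replicate 3, resistant replicate 1 or untreated replicate 3 (otherwise up to 0.152), and Pnpt1 in 2, those without resistant replicate 1 or 3 (otherwise up to 0.132). Over all 28 alternatives the call held in 19 for Cgas, 12 for Nmi, 9 for Jak1 and 7 for Pnpt1, and each difference stayed below 0. With the mean over all probes of the gene, Pnpt1 differed by -0.22 (limma adjusted p = 0.369).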

How the data were processed

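RNA of 16 melanoma biopsies was labelled with Cy5 and hybridised with a Cy3 reference. Feature Extraction 10.7.3.1 gave, per the file headers, the mean intensity of each spot and of its background. It also gave processed intensities with their log10 ratio, per the file headers. Flags of 0 or 1, a unit of another kind (other), mark spot quality per the file headers. The deposited value table holds log2 ratios. They matched the log10 ratios, once these were converted to log2, with a slope of 0.993. The value table was not centred (array medians -0.194 to -0.0638) and lacked 21.6% to 40.2% of values per array.

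Mean intensities were background-corrected again (normexp, offset 50) and loess-normalised within arrays in limma 3.58.1 (R 4.3.3), with control spots at weight 0 and outlier-flagged spots missing (0.550% of values). Probes above background in Cy5 on at least 4 arrays were kept, and the probe of highest mean intensity stood for each gene. The number of arrays, 4 a group, limits the precision. limma was fitted with all 4 groups in 1 model, and the fit was tested on simulated data.

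The members, gene lists and tests were chosen with earlier results of these data known. Genes are described in full when among the 5 widest differences of a comparison, or in a list of 12 (Irf1, Irf7, Irf9, Stat2, Isg15, Cxcl9, Cxcl10, Ifit1, Oas2, Mx1, Gbp2 and Rsad2), and others by role; Zbp1, Bst2 and Ddx58 were singled out after their values were seen. Alternatives covered the filter, signals, normalisation, probe choice, slide, arrays and array weights. Of the 18 probes not used, 14 passed the filter, and 13, 13 and 14 of these were lower at 4 days, at 60 days and in resistant tumours.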

Additional observations from a re-analysis of the deposited data

Results flagged for a closer look

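In 23 named genes and 4 groups, 92 sets of 4 arrays were examined for 1 array far from the other 3, and 4 sets (4.35%) had one, where chance gives about 1 in 20. Irf9 read 1.42 on untreated replicate 3, against 1.03 to 1.06 on the other untreated arrays. Irf9 also read 1.26 on resistant replicate 3, against 0.73 to 0.81. Isg15 read 0.64 on resistant replicate 2, against -0.01 to 0.08. Dhx58 read 0.23 on resistant replicate 4, against 0.65 to 0.72.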

How the results depend on the processing

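Over 28 alternatives the median difference of the interferon response genes stayed below 0 in each comparison with untreated tumours and moved by less than the spread between replicates. It ranged from -0.70 to -0.39 at 4 days, from -0.67 to -0.44 at 60 days and from -0.56 to -0.34 in resistant tumours, with at least 38, 34 and 31 members lower. The count of members called, 0 at first (295, 180 and 4 genes called in all), changed under some alternatives. With arrays weighted by their agreement with their group, 12 were called at 4 days, 14 at 60 days and 1 in resistant tumours, where 3953, 4832 and 913 genes were called in all, and untreated replicate 3 had the lowest weight (0.382). With Cy5 alone the counts were 2 at 4 days and 1 at 60 days (526 and 245 genes in all), with slide as a block 1 and 1 (645 and 618), and with only the 2 groups compared 5 at 60 days (1258). Leaving out 1 array gave 0 to 3 at 4 days, 0 to 3 at 60 days and 0 in resistant tumours; the 3 at 4 days came without 4-day replicate 3 (503 genes in all), the 3 at 60 days without resistant replicate 1 (1138), and 1 at 60 days without 4-day replicate 3 (331) or 4 (175). The causes were not tested. On slide 1 alone the difference of Cxcl9 was 0.41 in resistant against 4-day tumours and 0.18 against 60-day tumours, the reverse of the values over both slides. For Cgas, Jak1, Nmi, Pnpt1 and Mitf the alternatives were added after seeing the data. Median centring in place of loess ended all 5 of their 4-day calls, with differences of -0.57, -0.46, -0.71, -0.33 and 0.89, and so did fitting only the 2 groups compared or 1 slide alone. The scanner's processed signals ended those of Jak1 (-0.56, limma adjusted p = 0.0936), Nmi (-0.90, 0.0546), Pnpt1 (-0.47, 0.0952) and Mitf (0.88, 0.0725), as did the deposited value table, but neither ended that of Cgas. Without a filter Mitf was not called (adjusted p = 0.0560). No paired analysis was possible because replicate numbers follow accession order and pair no samples.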
